A study of Homo sapiens with 4 samples.

Results

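The tumour necrosis factor (TNF) and TNF receptor superfamily was taken as every row of the deposited count table whose gene symbol begins with TNFSF or TNFRSF followed by a digit. This gave 33 of 25369 genes, 21 receptors (TNFRSF) and 12 ligands (TNFSF), the readthrough TNFSF12-TNFSF13 among them. The libraries were poly(A) RNA from H226, an established human cell line labelled as lung squamous cell carcinoma, which carried 1 of 2 inducible short hairpin RNAs. The shp63 group (2 libraries) expressed a hairpin against p63, and the shControl group (2 libraries) a non-targeting hairpin. The labels number the replicates and do not say whether they were separate cultures. If they were not, the p-values do not measure spread between cultures. All 4 samples, shControl included, had 1 µg/mL doxycycline for 6 days. With a single hairpin against p63, loss of p63 and any off-target action of that hairpin cannot be told apart. Whether either line is a clone is not given in the sources used here.

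TNF superfamily ligands are trimeric, mostly membrane-bound proteins that cluster receptors on neighbouring cells, and proteases can release them in soluble form. Death receptors carry a cytoplasmic death domain and can start apoptosis through FADD and caspase-8, or NF-kB signalling through TRADD, RIPK1 and TRAF proteins. Decoy receptors bind ligand without a working death domain, and the remaining receptors signal through TRAF proteins. Epithelial and tumour cells are known to carry the receptors of TRAIL, TNF and TWEAK, while many of the other members are best known from lymphocytes and myeloid cells.

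The libraries held 51926832 to 53924761 counted reads. TP63, the targeted gene (chromosome 3, 189349178 to 189615065, plus strand, GRCh37), had 1596 and 1530 reads in shp63 against 7533 and 7364 reads in shControl, which were 4.46-fold fewer after normalisation. All 10 markers of basal squamous epithelium, TP63 itself among them, were detected in shControl, SOX2 with only 14 and 11 reads. The other 9 were also lower in shp63, beside 37.1% of all tested genes. SOX2 had 1 and 3 reads in shp63, so it entered the test through shControl alone. Of 6 mesothelial markers, MSLN averaged 330.4 CPM (read counts scaled to library size) in shp63 and 132 CPM in shControl, and UPK3B had 295.2 and 309.9 CPM in shp63 against 204 and 227 CPM in shControl. CALB2 and LRRN4 had 8 reads or fewer in each library, WT1 had no reads in shp63 and 3 and 4 reads in shControl, and PDPN had none in any library. Of 13 leukocyte markers 5 were tested, of which 4 rose (background 36.9%) and ITGAM, named after its values were seen, fell, with a summed level of 81.6 to 85.3 CPM in shp63 against 14.96 to 16.41 CPM in shControl. CD14 and CD68, markers of myeloid cells, led that sum. LYZ, also named after its values were seen, rose from 1 and 1 reads in shControl to 33 and 21 in shp63. It entered the test through shp63 alone, so the count of risen markers supports nothing further. The pan-leukocyte marker PTPRC had 8 and 6 reads in shp63 and 6 and 4 in shControl, and CD2, MS4A1 and FCGR3A were at 0 throughout.

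Of the 33 members, 21 had 10 or more reads in at least 2 libraries, and the same 21 passed the filter of the test, 13 receptors and 8 ligands. Among those called beyond 1.5-fold were rises of the ligand genes TNFSF14, TNFSF13 and TNFSF13B and of the receptor gene TNFRSF21, whereas none of the 4 TRAIL receptor genes was higher in shp63. By edgeR's quasi-likelihood test 12 of the 21 were higher and 5 lower in shp63 at an adjusted p under 0.05. That is 81% of those tested, and the background over all 14901 tested genes was 74.0%, so this share is close to that of any gene in these libraries. A change beyond 1.5-fold was called for 6 members upward and 1 downward, or 33.3%, against a background of 22.7%. The groups did not overlap for 19 of the 21, against 86.4% of all tested genes. The median log2 fold change was 0.35 over the tested members (0.24 over receptors, 0.76 over ligands) and -0.01 over all tested genes. TNFSF14, TNFRSF8 and TNFRSF9 had 10 reads in both shp63 libraries but not in both shControl libraries, so these counts and medians describe the tested members and support nothing further.

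**Figure D1:**
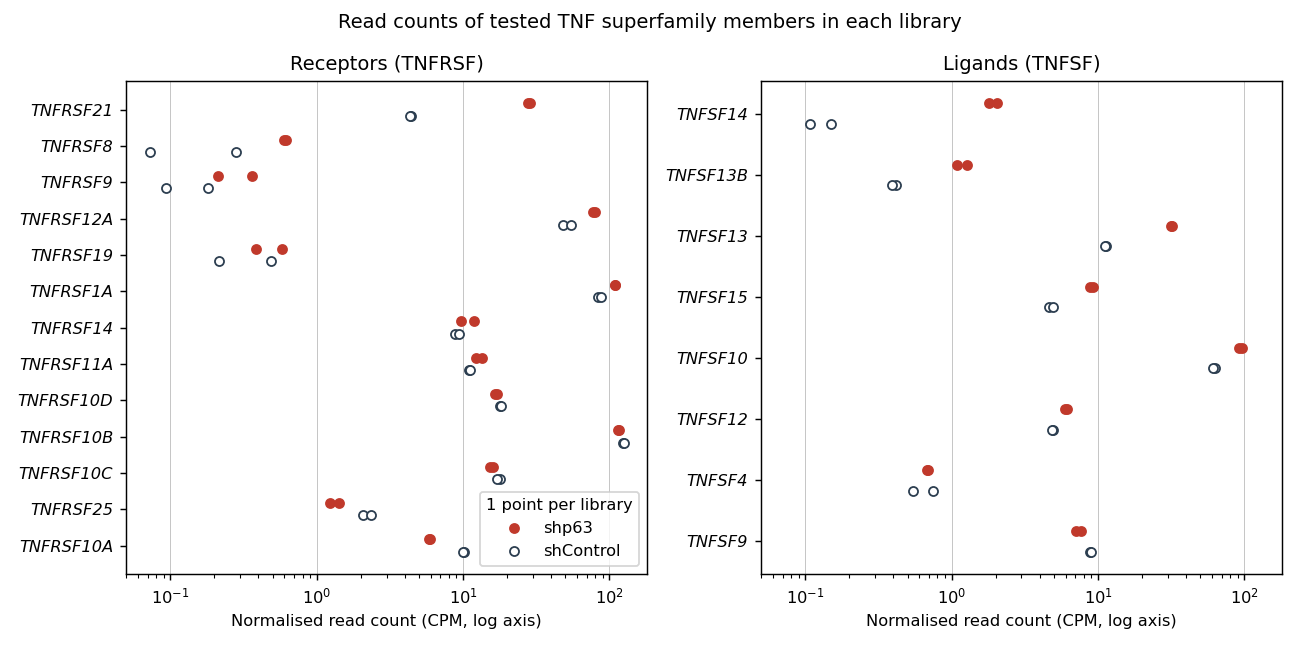
Normalised read counts (CPM, log axis) of the 21 tested members, receptors left and ligands right, with 1 point per library for shp63 (filled) and shControl (open), ordered by fold change. The 2 shp63 points of TNFRSF21 lie at 27.6 and 28.6 CPM and its shControl points at 4.37 and 4.38 CPM, while the points of TNFRSF19 and TNFSF4 interleave.

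The 4 most abundant members were the same genes in both groups (4 of 4 shared). Per kilobase of exon, TNFRSF12A, the TWEAK receptor, stood first with 43.6 RPKM (CPM per kilobase of exon) in shp63 and 28.6 RPKM in shControl. It was followed in shp63 by TNFSF10, which encodes TRAIL (27.4 RPKM), TNFRSF1A, the main TNF receptor (25.8 RPKM), and the TRAIL receptor gene TNFRSF10B (23.1 RPKM). In shControl those 3 were at 18.0, 20.3 and 24.9 RPKM in the same order of genes. TNFSF13, the APRIL ligand gene, ranked 5 in shp63 at 14.0 RPKM but 8 in shControl at 4.94 RPKM, and TNFRSF21 ranked 7 at 7.83 RPKM in shp63 but 12 at 1.22 RPKM in shControl. In shp63 only TNFSF14 and TNFSF13B, at 0.402 and 0.388 RPKM, were neighbours in the order whose libraries overlapped. In shControl the libraries of neighbours overlapped among the 4 lowest genes, TNFRSF19, TNFRSF8, TNFSF14 and TNFRSF9, which were all under 0.1 RPKM. These levels rest on the union of annotated exons, and with the length of the MANE transcript TNFRSF10B moved from rank 2 to rank 4 in shControl, TNFSF13 from rank 8 to rank 6 in shControl and TNFRSF14 from rank 11 to rank 8 in shp63. That length raised the level of 6 members by over 1.5 times, TNFRSF12A to 80.3 RPKM in shp63 and 52.8 RPKM in shControl, and the 4 highest genes stayed the same 4 in each group.

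**Figure D2:**
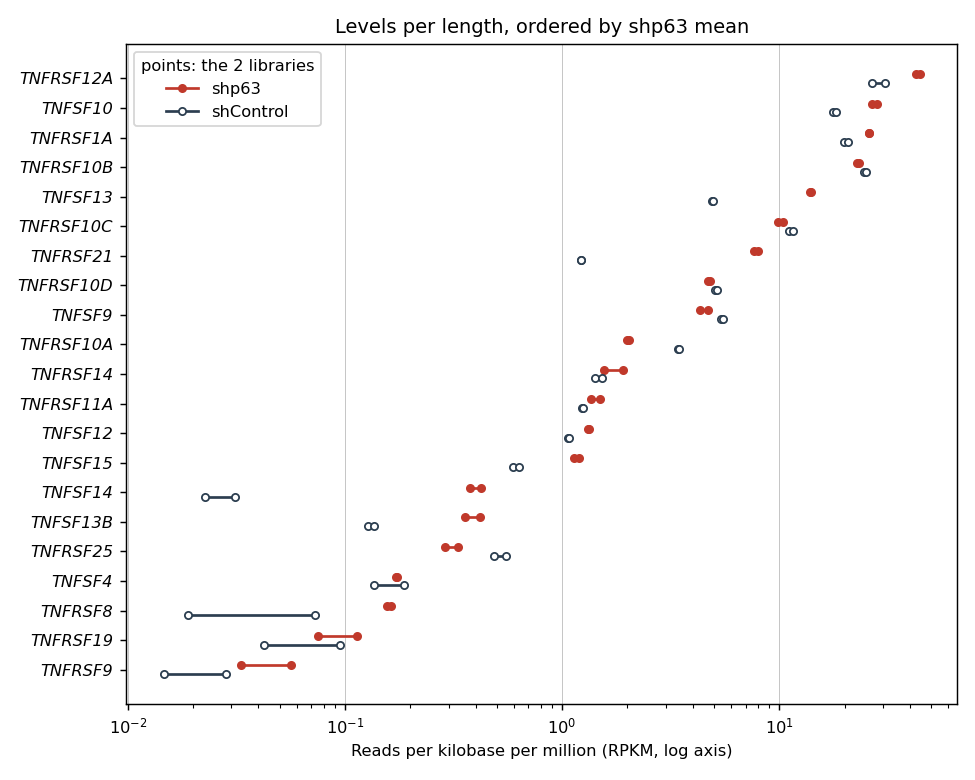
Level per length (RPKM, log axis) of each tested member, ordered by the shp63 mean, with filled points for the shp63 libraries and open points for the shControl libraries joined by lines. TNFRSF12A is highest in both groups at 43.6 and 28.6 RPKM, and on this axis TNFSF14 (14.7-fold) and TNFRSF21 (6.43-fold) show the widest gaps between groups.

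Among the death receptors, TNFRSF21 rose and the TRAIL receptor gene TNFRSF10A fell. TNFRSF21 (chromosome 6, 47199268 to 47277641, minus strand), which encodes death receptor 6, had 28.6 and 27.6 CPM in shp63 against 4.38 and 4.37 CPM in shControl. The shp63 libraries were close to each other and well above both controls. The difference was 6.43-fold, a log2 fold change of 2.68 (SE 0.068), with adjusted p = 2.77e-19 in edgeR's quasi-likelihood test with Benjamini-Hochberg adjustment and 8.99e-18 in the test beyond 1.5-fold. TNFRSF1A, through which soluble TNF signals in most cell types, had 108.6 and 108.7 CPM in shp63 and 83.6 and 87.5 CPM in shControl, a 1.27-fold rise (SE 0.037 on the log2 scale, edgeR adjusted p = 2.95e-08). Both shp63 libraries were above both controls, but the rise did not pass the test beyond 1.5-fold.

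The 250 bases before the RefSeq start of TNFRSF21 are shown because this receptor gene had the smallest adjusted p of the family. They are GRCh37 chr6:47277642-47277891, minus strand, read 5′ to 3′, from the RefSeq promoter table (listed there on GRCh38.p14 and placed on GRCh37 by exact match).
TNFRSF21: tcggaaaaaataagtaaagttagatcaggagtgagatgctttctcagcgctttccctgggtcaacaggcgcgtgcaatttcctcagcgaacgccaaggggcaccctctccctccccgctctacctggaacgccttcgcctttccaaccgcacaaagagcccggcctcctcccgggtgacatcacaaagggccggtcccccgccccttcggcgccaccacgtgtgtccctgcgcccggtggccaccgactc
The window was searched on both strands for the NF-kB consensus, for the AP-1 motif TGANTCA and for the p53 family half-site consensus, and holds none of these. Of 35115 RefSeq windows of the same length, 9.96% hold the first, 6.57% the second and 5.57% the third.

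The 4 TRAIL receptor genes lie side by side on chromosome 8 (22877646 to 23082615, GRCh37), and none of them rose. TNFRSF10A, encoding the death receptor DR4, had 5.84 and 5.98 CPM in shp63 against 10.1 and 9.99 CPM in shControl, with no overlap. It fell 1.70-fold, a log2 fold change of -0.77 (SE 0.079, edgeR adjusted p = 1.39e-08 with Benjamini-Hochberg). This was the only member called lower beyond 1.5-fold (adjusted p = 0.0193 in edgeR), a call lost in DESeq2, in limma-voom and without shp63 replicate 1 or shControl replicate 1.

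TNFRSF10B, encoding the other TRAIL death receptor DR5, was the most counted member of the family with 116.5 and 114.6 CPM in shp63 against 123.5 and 125.5 CPM in shControl. It fell by 0.11 on the log2 scale (SE 0.033, edgeR adjusted p = 0.00585), a small difference that no library overlapped. The decoy gene TNFRSF10C, whose product is anchored by a lipid and has no death domain, had 16.1 and 15.3 CPM in shp63 and 17.8 and 17.1 CPM in shControl (log2 fold change -0.15, SE 0.059, edgeR adjusted p = 0.0234). That call was lost in DESeq2 (adjusted p = 0.156) and without shp63 replicate 2 or shControl replicate 1 (adjusted p = 0.125 and 0.118 in edgeR). The decoy gene TNFRSF10D, whose product has a truncated death domain, was at 17.03 and 16.63 CPM in shp63 and 17.8 and 18.3 CPM in shControl and did not pass (edgeR adjusted p = 0.116). With library totals as the only scaling it was called lower (edgeR adjusted p = 0.00601). These 4 genes are close paralogs, so the counts depend on how the authors' pipeline assigned reads shared between them. TNFRSF10B also overlaps RHOBTB2 on the other strand, which had 2701 and 2474 reads in shp63 and 3574 and 3422 in shControl.

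TNFRSF25, which encodes death receptor DR3 of lymphocytes, was low, with 64 and 71 reads in shp63 against 115 and 127 reads in shControl. It fell 1.68-fold, a log2 fold change of -0.74 (SE 0.16, edgeR adjusted p = 0.000343), and did not pass the test beyond 1.5-fold (adjusted p = 0.23). The gene overlaps ESPN on the other strand, which had 41 and 56 reads in shp63 and 18 and 13 in shControl. Decoys of other ligands were near the floor. TNFRSF6B, a soluble decoy for FASLG, LIGHT and TL1A, had 7 and 7 reads in shp63 and 7 and 5 in shControl, and TNFRSF11B, the RANKL decoy osteoprotegerin, had 1 and 1 reads in shp63 and none in shControl. TNFRSF6B overlaps ARFRP1 on the other strand, with 1834 and 1843 reads in shp63 and 2815 and 2579 in shControl. On its own strand it overlaps RTEL1-TNFRSF6B, with 7 and 4 reads in shp63 and 8 and 20 in shControl. How reads common to these genes were assigned is not given in the sources used here.

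Of the receptor genes with a TNFRSF symbol, those tested for receptors that signal through TRAF proteins without a death domain rose where they passed. TNFRSF12A (chromosome 16, 3068446 to 3072384, plus strand), a small receptor induced by growth factors and injury, had 77.1 and 79.8 CPM in shp63 against 48.08 and 55.03 CPM in shControl. It rose 1.52-fold, a log2 fold change of 0.61 (SE 0.052, edgeR adjusted p = 4.62e-09 with Benjamini-Hochberg), and was not called beyond 1.5-fold (adjusted p = 0.50), except without shControl replicate 2. The controls differed more from each other than the shp63 libraries did. TNFRSF12A overlaps CLDN6 on the other strand, which had 5 reads or fewer in every library.

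TNFRSF14, the HVEM receptor of LIGHT and BTLA, had 11.8 and 9.69 CPM in shp63 against 8.77 and 9.45 CPM in shControl. The rise of 0.24 on the log2 scale (SE 0.086, edgeR adjusted p = 0.0162) rested on shp63 replicate 1, without which it was 0.09 (adjusted p = 0.405), and was not called without shControl replicate 1 either (edgeR adjusted p = 0.082). TNFRSF11A, encoding the RANKL receptor RANK, had 13.5 and 12.2 CPM in shp63 and 11.1 and 11.2 CPM in shControl. Its log2 fold change of 0.21 (SE 0.069, edgeR adjusted p = 0.0108) also lost its call without shp63 replicate 1 (0.13, adjusted p = 0.167). Both genes lost their calls in DESeq2 (adjusted p = 0.0786 and 0.0777) and with library totals only.

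TNFRSF8, the CD30 receptor of activated lymphocytes, had 31 and 31 reads in shp63 against 4 and 15 reads in shControl. It rose 3.45-fold, a log2 fold change of 1.79 (SE 0.40, edgeR adjusted p = 0.000377, and 0.00509 beyond 1.5-fold). The shp63 libraries were equal and the controls were not, and the log2 fold change ran from 1.11 without shControl replicate 1 to 3.02 without shControl replicate 2. The call beyond 1.5-fold was lost without shControl replicate 1 and in DESeq2. TNFRSF9, a costimulatory receptor of T cells, had 11 and 18 reads in shp63 and 10 and 5 reads in shControl, and TNFRSF19, known as TROY, had 20 and 29 reads in shp63 and 12 and 26 reads in shControl. Neither passed (edgeR adjusted p = 0.0514 and 0.255), and for TNFRSF19 the libraries of the groups overlapped. TNFRSF9 was called higher without shp63 replicate 1 or shControl replicate 1 (edgeR adjusted p = 0.0334 and 0.0329) and in limma-voom (adjusted p = 0.0403), and TNFRSF19 without shControl replicate 2 (edgeR adjusted p = 0.0271). These 3 genes rest on at most 31 reads per library.

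**Figure D3:**
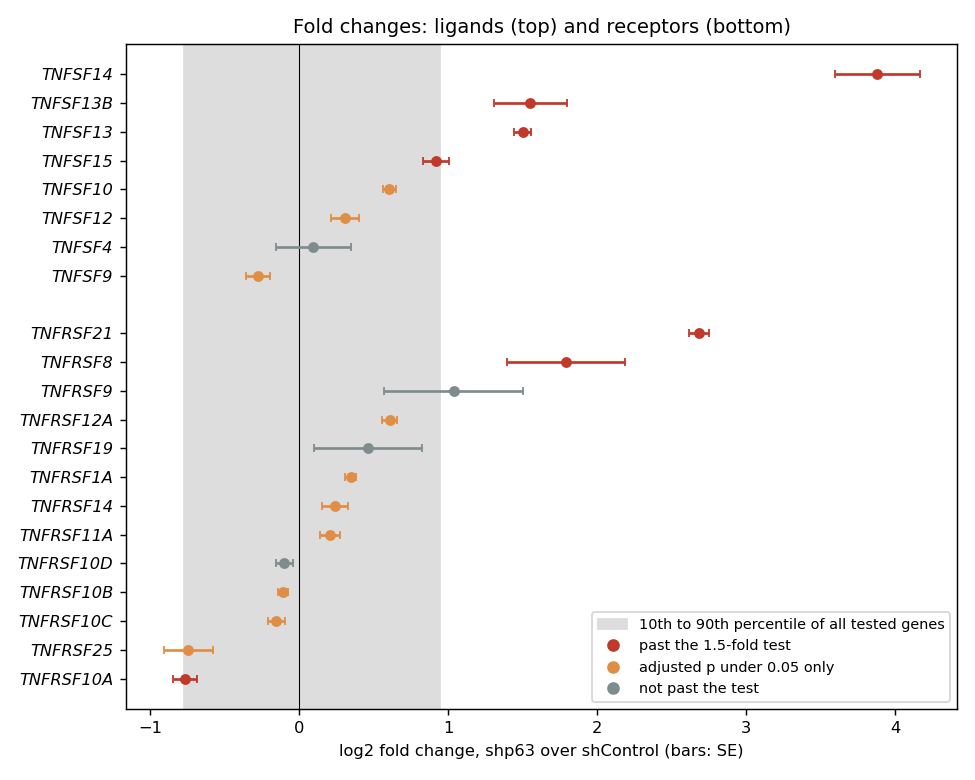
log2 fold change of shp63 over shControl with its SE for the 21 tested members, ligands above receptors, coloured by test result. The grey band spans the 10th to 90th percentile of all tested genes (-0.77 to 0.95). TNFSF14 at 3.88, TNFRSF21 at 2.68, TNFRSF8 at 1.79, TNFSF13B at 1.55 and TNFSF13 at 1.499 lie beyond it among the called members.

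Of the 8 TNFSF genes tested 6 were higher, 1 lower and 1 not past the threshold, beside a background of 36.9% higher and 37.1% lower, and the 7 called are a share near the background of 74.0%. TNFSF14 (chromosome 19, 6661264 to 6670599, minus strand) encodes LIGHT, a ligand of HVEM and of the lymphotoxin beta receptor. It had 94 and 102 reads in shp63 against 6 and 8 reads in shControl, or 1.81 and 2.03 CPM against 0.108 and 0.149 CPM. The groups were far apart, and the controls lay close to the detection floor. The fitted difference was 14.7-fold, a log2 fold change of 3.88 (SE 0.28, edgeR adjusted p = 4.03e-11, and 6.25e-10 beyond 1.5-fold). TNFSF14 reached 10 reads in shp63 alone, so it entered the test through the group where it was higher. LIGHT is best known from T cells and immature dendritic cells, and the leukocyte marker sum given above, carried by CD14 and CD68, was higher in the same libraries. The T cell markers were near the floor, CD3D with 0 and 1 reads and CD3E with 4 and 4 reads in shp63 against none in shControl, CD2 was at 0 throughout, and PTPRC had 8 reads or fewer. The libraries came from cultures of an established cell line. Any part of leukocytes in this result was not tested, and in bulk RNA more cells of a type and more RNA per cell cannot be told apart.

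The 3 matches found in the 250 bases before the RefSeq start of TNFSF14 are shown, with 5 bases on each side, because this ligand gene had the largest fold change of the tested members. That RefSeq start lies inside the GENCODE gene given above, as do the matches. They lie on the minus strand of GRCh37 chromosome 19, at chr19:6670349-6670368, chr19:6670348-6670367 and chr19:6670326-6670342 in the order given. Capitals mark the match, which is the NF-kB consensus in matches 1 and 2 (overlapping by all but 1 base) and TGANTCA in match 3.
TNFSF14 match 1: aagctGGGGGCTCCCcactg
TNFSF14 match 2: agctgGGGGCTCCCCactgc
TNFSF14 match 3: ccaccTGAGTCAcattt

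TNFSF13 and TNFSF13B encode APRIL and BAFF, the paired survival factors of B cells and plasma cells, and both rose. TNFSF13 (chromosome 17, 7461609 to 7464925, plus strand) had 31.60 and 31.95 CPM in shp63 against 11.3 and 11.2 CPM in shControl. Replicates were nearly equal, and the rise was 2.83-fold, a log2 fold change of 1.499 (SE 0.054, edgeR adjusted p = 1.54e-16, and 1.89e-13 beyond 1.5-fold). TNFSF13B was lower in level, with 57 and 64 reads in shp63 against 23 and 21 reads in shControl. It rose 2.93-fold, a log2 fold change of 1.55 (SE 0.24, edgeR adjusted p = 6.46e-06, and 0.000468 beyond 1.5-fold, a call DESeq2 did not make). Their receptors were near or at the floor. TNFRSF13B (TACI) had 1 and 1 reads in shp63 and none in shControl, TNFRSF13C (the BAFF receptor) had 2 and 0 reads in shp63 and 1 and 9 in shControl, and TNFRSF17 (BCMA) had none in any library.

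TNFSF13 and its neighbour TNFSF12 share the strand and a readthrough gene, TNFSF12-TNFSF13, which had 1 and 0 reads in shp63 and 5 and 1 reads in shControl. How reads common to these 3 genes were assigned is not given in the sources used here. TNFSF12, encoding TWEAK, the ligand of TNFRSF12A, had 6.09 and 5.98 CPM in shp63 against 4.91 and 4.86 CPM in shControl. It rose 1.24-fold (log2 fold change 0.31, SE 0.093, edgeR adjusted p = 0.00541), which DESeq2 did not call (adjusted p = 0.0634).

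The window before the upstream RefSeq start of TNFSF13 (GRCh37 chr17:7461349-7461598, plus strand) is shown because it holds 1 match to the NF-kB consensus, in capitals. The match therefore follows from the choice of window. The other TNFSF13 window (GRCh37 chr17:7461817-7462066, plus strand) held none of the motifs searched.
TNFSF13: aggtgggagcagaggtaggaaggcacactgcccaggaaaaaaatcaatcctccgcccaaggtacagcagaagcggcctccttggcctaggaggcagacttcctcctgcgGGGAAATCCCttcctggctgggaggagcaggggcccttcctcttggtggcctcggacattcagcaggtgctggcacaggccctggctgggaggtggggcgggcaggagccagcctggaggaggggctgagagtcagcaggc
RefSeq windows were found for 15 of the 21 tested members, 19 windows in all with some genes holding 2, and some of the RefSeq starts, that of TNFSF15 among them, lie inside the GENCODE gene. Of the windows, 6 held the NF-kB consensus, 4 held TGANTCA and 2 held the p53 family half-site. Over all 35115 RefSeq windows of that length the shares were 9.96%, 6.57% and 5.57%. Windows of the same gene can overlap, and both TNFSF14 windows held the same NF-kB and TGANTCA matches. Windows with the NF-kB consensus belonged to TNFRSF9, TNFRSF14, TNFRSF19, TNFSF13 and TNFSF14, of which TNFRSF9 and TNFRSF19 did not pass the test. A match is a description of the sequence and not a binding site shown to be used.

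TNFSF15 and TNFSF10 rose as well. TNFSF15 (chromosome 9, 117546932 to 117568319, minus strand) encodes TL1A, the ligand of TNFRSF25 and of the decoy TNFRSF6B. It had 8.86 and 9.27 CPM in shp63 against 4.64 and 4.95 CPM in shControl, a 1.89-fold rise (log2 fold change 0.92, SE 0.087, edgeR adjusted p = 2.93e-09, and 0.000523 beyond 1.5-fold, which DESeq2 did not call). The ligand gene was higher and its receptor gene TNFRSF25 lower in the same libraries. TNFSF10 (chromosome 3, 172223298 to 172241265, minus strand), encoding TRAIL, had 96.6 and 92.1 CPM in shp63 against 63.1 and 60.9 CPM in shControl. It rose 1.52-fold (log2 fold change 0.61, SE 0.041, edgeR adjusted p = 1.26e-11) and was not called beyond 1.5-fold (adjusted p = 0.455), while its death receptor genes TNFRSF10A and TNFRSF10B were lower.

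TNFSF9, whose product is the ligand of TNFRSF9, was the one gene with a TNFSF symbol that fell. It had 7.04 and 7.68 CPM in shp63 against 8.86 and 8.99 CPM in shControl, a log2 fold change of -0.28 (SE 0.080, edgeR adjusted p = 0.00351). The call was lost without shp63 replicate 1 (adjusted p = 0.0573 in edgeR) and in DESeq2 (adjusted p = 0.0539). TNFSF4, a costimulatory ligand for TNFRSF4, had 36 and 34 reads in shp63 and 30 and 40 reads in shControl. It did not pass (log2 fold change 0.10, SE 0.25, edgeR adjusted p = 0.745), and its libraries overlapped.

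The 12 members that were not tested had fewer than 10 reads in at least 3 libraries. TNFRSF17, TNFSF8 and TNFSF18 had no read in any library. By counting error alone, a limit of 3 reads allows up to 0.0556 to 0.0578 CPM per library, here scaled by library totals without TMM factors. The other 9 had at most 9 reads in a library. TNFRSF1B, the other TNF receptor, was just under the limit with 6 and 9 reads in shp63 and 2 and 0 in shControl, and TNFRSF9, described above, was just over it. TNFRSF4 and TNFRSF18, costimulatory receptors of T cells, and TNFSF11, which encodes RANKL, had 2 reads or fewer in each library.

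Superfamily members with older or other symbols divided in direction. Of 15 listed genes 10 were tested, of which 3 rose and 5 fell (edgeR, adjusted p under 0.05), with a median log2 fold change of -0.15. The 8 called of 10 are a share near the background of 74.0%. All 4 called beyond 1.5-fold were lower, beside a background of 22.7% called beyond 1.5-fold in either direction. NGFR, the neurotrophin receptor of basal cells, averaged 0.821 ± 0.062 CPM in shp63 and 16.4 ± 0.535 CPM in shControl (SD, n = 2 each). The ectodysplasin receptor gene EDAR, which acts in skin appendages, had 37 and 31 reads in shp63 against 202 and 207 in shControl (log2 fold change -2.49), and EDA2R, the receptor of the other ectodysplasin form, averaged 21.0 ± 0.491 CPM in shp63 and 39.2 ± 1.21 CPM in shControl (log2 fold change -0.90). CD70, the ligand of CD27, had 6 and 3 reads in shp63 and 22 and 18 in shControl. It reached 10 reads in shControl alone, so it entered the test through the group where it was higher. FAS, the death receptor of FASLG, fell 1.56-fold to 35.45 ± 1.035 CPM in shp63, against 55.3 ± 0.421 CPM in shControl (edgeR adjusted p = 2.42e-12).

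The 3 that rose were LTBR, EDA and RELT. LTBR, the lymphotoxin beta receptor that also binds LIGHT, had 6850 and 6432 reads in shp63 against 5339 and 5331 in shControl and rose 1.33-fold. The ectodysplasin gene EDA rose 1.26-fold and RELT, an orphan receptor, 1.29-fold. TNF itself was low, with 57 and 63 reads in shp63 and 37 and 54 in shControl, and did not pass (log2 fold change 0.49, SE 0.22, edgeR adjusted p = 0.0516). LTB did not pass either, with 13 and 11 reads in shp63 and 8 and 8 in shControl. CD40 and its ligand gene CD40LG had no reads in any library, and LTA, FASLG and CD27 had 3 reads or fewer in each.

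Of 34 genes for receptor adaptors and proximal signalling 33 were tested, and 16 rose and 9 fell (edgeR, adjusted p under 0.05), with a median log2 fold change of 0.10. The total of 25 called is a share near the background of 74.0%, and with library totals as the only scaling the split was 14 higher and 13 lower. BIRC3, a ubiquitin ligase that blocks cell death at the TNF receptor, rose 4.51-fold to 124 ± 3.73 CPM in shp63, against 27.5 ± 0.292 CPM in shControl (SD, n = 2 each). TNFAIP3, which encodes the feedback inhibitor A20, rose 2.37-fold to 52.6 ± 0.677 CPM, against 22.2 ± 0.369 CPM. CFLAR, encoding the caspase-8 inhibitor c-FLIP, rose 1.89-fold to 110 ± 1.80 CPM, against 58.3 ± 1.09 CPM. The falls of smallest adjusted p were those of EDARADD, the adaptor of EDAR (2.95-fold), of DAXX (1.48-fold) and of OTULIN, a linear ubiquitin hydrolase (1.38-fold). CASP8, named here after its values were seen because it acts below the death receptors, fell 1.26-fold.

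All 8 genes of shedding and maturation passed the test, 5 upward and 3 downward (median log2 fold change 0.47), beside a background of 74.0% called, 36.9% higher and 37.1% lower. The proprotein convertase genes FURIN and PCSK5 rose 2.40-fold and 3.16-fold, and ADAM10, a sheddase of many membrane proteins, rose 1.88-fold to 396 ± 1.11 CPM in shp63, against 211 ± 0.0615 CPM in shControl (SD, n = 2 each). TIMP3, the inhibitor of the TNF sheddase, fell 2.35-fold and the sheddase gene ADAM17 fell 1.13-fold. RHBDF2, which guides ADAM17 to the surface, fell 1.14-fold, from 17.85 CPM in shControl to 15.64 CPM in shp63. RHBDF1 of the same list, named after its values were seen, rose 1.52-fold, from 42.87 CPM in shControl to 65.27 CPM in shp63. Of 22 listed NF-kB target genes that TNF is known to induce, 17 were tested and 16 rose, 12 of them beyond 1.5-fold, beside backgrounds over all tested genes of 36.9% higher and 12.7% higher beyond 1.5-fold. Their median log2 fold change was 1.00 against -0.01 over all tested genes. The other one, CCL20, had 33 and 28 reads in shp63 and 35 and 35 in shControl (edgeR adjusted p = 0.728). The 5 not tested, CCL2, VCAM1, MMP9, CSF2 and IL6, had 8 reads or fewer in each library. IER3 rose 4.90-fold and PTGS2, encoding cyclooxygenase-2, 6.38-fold. This list shares BIRC3, CFLAR, TNFAIP3 and TRAF1 with the adaptor list. It was chosen with earlier results of these data known, so its contrast with all tested genes supports nothing further.

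**Figure D4:**
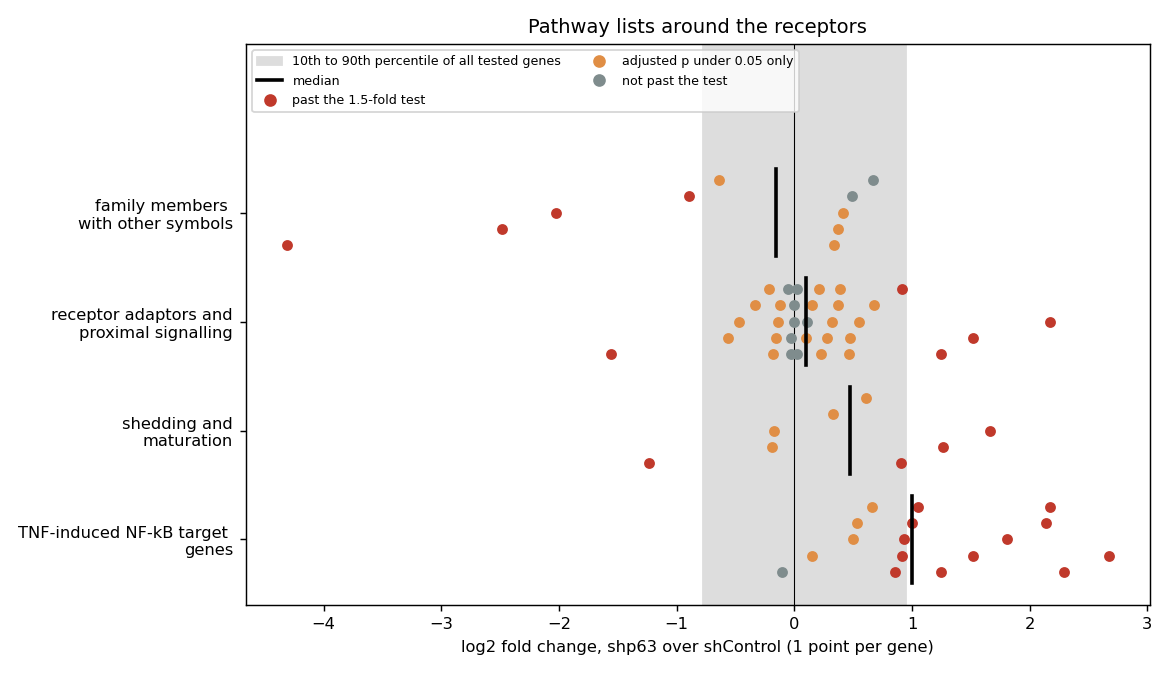
log2 fold change of each tested gene in the 4 pathway lists (1 point per gene, spread vertically for visibility), coloured by test result, with a bar at each list's median and a grey band for the 10th to 90th percentile of all tested genes. The bar lies at 1.00 for the NF-kB targets, 0.47 for shedding and maturation, 0.10 for the adaptors and -0.15 for the family members with other symbols, whose lowest point is NGFR.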

How the data were processed

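The authors mapped reads to GRCh37 with TopHat2 2.0.13, counted them per gene with HTSeq 0.6.1 and tested with DESeq2, per the series' design text and the submitters' processing notes. The gene annotation, the strand setting and the counting mode are not given in the sources used here. The deposited values are raw counts, 1 row for each gene symbol, with no normalization.

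From these counts the whole table was tested with edgeR 4.0.16 in R 4.3.3, with TMM factors, filterByExpr defaults (minimum count 10), a robust quasi-likelihood fit on group alone over all 4 libraries, and Benjamini-Hochberg adjustment over 14901 genes with calls under 0.05. A test beyond 1.5-fold (glmTreat) was the second rule. SE was derived from the log2 fold change and the root of the F value. CPM uses the TMM factors, and RPKM divides it by the union of GENCODE exons on GRCh37. Counts of replicate pairs differed by more than sampling noise (chi-square per degree of freedom 3.13 in shp63, 2.92 in shControl). An exact two-sided permutation test of 2 against 2 cannot go under p = 0.333, so calls rest on the spread shared across genes (common coefficient of variation 0.0308, 2 residual degrees of freedom). The test was tried on simulated counts with 200 changed genes. That is far fewer than were called in these data, so the trial cannot check the test where most genes change.

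Members described in full were those with 10 or more reads in at least 2 libraries. From each pathway list the 3 genes of smallest adjusted p per direction were named, with every tested gene of the list of family members with other symbols. Listed genes IL8 and FAM105B were matched as CXCL8 and OTULIN through RefSeq synonyms. The members and lists were chosen with earlier results of these data known. Alternatives were RLE size factors, library totals, other filters, DESeq2 1.42.0, limma-voom (limma 3.58.1), a replicate block and leaving out each library.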

Additional observations from a re-analysis of the deposited data

How the results depend on the processing

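Calls were compared over RLE size factors, library totals, 3 other filters, DESeq2, limma-voom, a replicate block and each library left out. DESeq2 called 9 members higher and 3 lower, and beyond 1.5-fold 3 higher (TNFRSF21, TNFSF13 and TNFSF14, all 3 shared with edgeR) and 0 lower (0 at an unadjusted p under 0.05). Limma-voom also called 0 lower beyond 1.5-fold (1 at an unadjusted p under 0.05), where edgeR called 1. With 1 library left out, 0 to 1 members were lower beyond 1.5-fold, 5 to 7 higher beyond it, and the members' median log2 fold change was 0.31 to 0.37. That median was 0.26 with library totals and 0.40 with no filter. The median of all genes was -0.0012 with RLE factors and in DESeq2, -0.0958 with library totals, 0.0226 with no filter, -0.0116 with a filter of 1 CPM, and -0.0106 to -0.0072 with 1 library left out. The list of family members with other symbols had a median of -0.2427 with library totals and, reversed, 0.3643 with no filter, where more low genes enter. With 1 library left out its median was -0.2103 to -0.149, that of the adaptors 0.0701 to 0.1032 and that of the NF-kB targets 0.9847 to 1.0059. With library totals 10 members were higher and 6 lower, 14 and 13 of the adaptors, and 4658 and 6591 of all genes (5499 and 5534 with TMM), and the medians were 0.0116 for adaptors, 0.3817 for shedding and 0.9131 for NF-kB targets, the last also 1.0432 with no filter and 1.0264 with a filter of 1 CPM. With 1 library left out TNFRSF19 ran from -0.0173 to 1.1313 and TNFSF4 from -0.1243 to 0.3308, in both cases reversed without shControl replicate 1. Of 269 alternative values for single members 247 kept their direction and side of the threshold. The cause of the changes was not tested.

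The labels do not say that a replicate number pairs cultures, and same-numbered deviations correlated at -0.112 across genes. With the replicate block 13 members were higher, TNFRSF9 added (edgeR adjusted p = 0.0487), and 5 lower (all genes 5408 and 5450), and with crossed pairs, an alternative chosen after seeing the data, 13 and 5 (all genes 5659 and 5728). Depth limits TNFRSF8, TNFRSF9 and TNFRSF19, with at most 31 reads in a library, and TNFSF14 in shControl, with 6 and 8 reads. The MANE transcript length was also chosen after seeing the data.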
